A study of Caenorhabditis elegans with 18 samples.

Results

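Breaking down a fatty acid in the mitochondrion needs a chain of enzymes. An acyl-CoA synthetase first joins the fatty acid to coenzyme A, and the carnitine palmitoyltransferases (CPT) carry the long-chain acyl group across the mitochondrial membranes. Inside, acyl-CoA dehydrogenases, enoyl-CoA hydratases, hydroxyacyl-CoA dehydrogenases and thiolases act in turn and release acetyl-CoA. In *Caenorhabditis elegans* the intestine is the main fat store, and the nuclear receptor NHR-49 is known to control genes of this chain, acs-2 among them, when food is short.

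The 10 genes described here were taken by name as components of mitochondrial beta-oxidation and its carnitine shuttle, out of 46748 gene identifiers counted. They are acs-2 (synthetase), cpt-1, cpt-5 and cpt-2 (shuttle), acdh-2, acdh-7 and acdh-8 (dehydrogenases), ech-7 and ech-4 (enoyl-CoA hydratase family) and hacd-1 (hydroxyacyl-CoA dehydrogenase). The rule for that choice uses gene names and not measured values, though earlier results of these data were known when it was made. All 10 passed the filter on low counts in the main fit of each comparison, acdh-8 through a few libraries only.

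RNA of whole worms was sequenced after poly(A) selection in 18 libraries. The strain CF2473 carries ire-1(ok799), a deletion in the gene for IRE-1, a sensor of stress in the endoplasmic reticulum, and was compared with the wild-type strain N2 (WT). Both strains grew at 15 °C for 5 days, from egg to day 1 of adulthood, and were harvested either after a further 24 h at 2 °C (cold) or directly (control). Experiment 1 held ire-1 cold, ire-1 control, WT cold and WT control with n = 3 each, and experiment 2 held WT cold and WT control with n = 3 each, which are replicates 4 to 6. The submitters call the replicates biological. Cold worms were also 24 h older than control worms, so that cold and age cannot be told apart in these groups. The deletion is carried in the germline, so the mutant worms lack the normal gene in every tissue.

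The libraries of experiment 1 held 20621965 to 29518450 counts each, and those of experiment 2 held 10449794 to 16814732. Levels are given as TMM-normalised CPM (reads of a gene scaled to a common library size). The ire-1 gene itself stood at 36.6 to 63.8 CPM in the 6 ire-1 libraries and at 85.4 to 228 CPM in the 12 WT libraries, with no overlap. Sperm RNA was plentiful in 4 libraries, ire-1 cold 2, ire-1 control 1, WT cold 2 and WT control 1, where 36 sperm genes summed to 275 to 1174 CPM, against 5.66 to 97.9 CPM in the other 14. Cuticle collagen genes (156 of them) were also high in these 4, at 23305 to 60189 CPM in sum, against 6841 to 19068 CPM. Calls among the 10 genes that changed without these 4 libraries are given beside the result. Leaving them out left n = 2 in each group of experiment 1. For cold in WT only WT cold 2 and WT control 1 were taken out, as that fit held no ire-1 library.

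The first question was how these genes responded to cold in WT, over both experiments (n = 6 per condition). By edgeR 4 of the 10 fell, namely acs-2 (activation), cpt-5 (shuttle), ech-7 (hydration) and hacd-1 (second oxidation), and none rose. They were 7.81-fold, 4.54-fold, 3.58-fold and 2.76-fold lower in WT cold, in that order. Over all 11766 genes tested, 13.1% were called at an adjusted p of 0.05, with 10.4% lower and 2.7% higher, and 3821 had an unadjusted p under 0.05. The same 4 genes passed with limma-voom and without the 4 libraries with much sperm RNA. Of these libraries only WT cold 2 and WT control 1 belonged to the fit, and without them 8.24% of all genes were lower and 2.64% higher. DESeq2 called 5 lower (the same 4 genes and acdh-2) and 1 higher (cpt-2), where 13.7% of all genes were lower and 8.49% higher. The median log2 fold change was -1.36 over the 10 genes and -0.07 over all genes tested. The median of the 10 lies between acdh-2 (-1.41 ± 0.44) and acdh-8 (-1.31 ± 1.41), neither of them called. It is therefore uncertain, as acdh-8 alone moved to 1.45 without WT control 1. In whole worms, fewer cells of a type and less RNA per cell cannot be told apart.

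**Figure D1:**
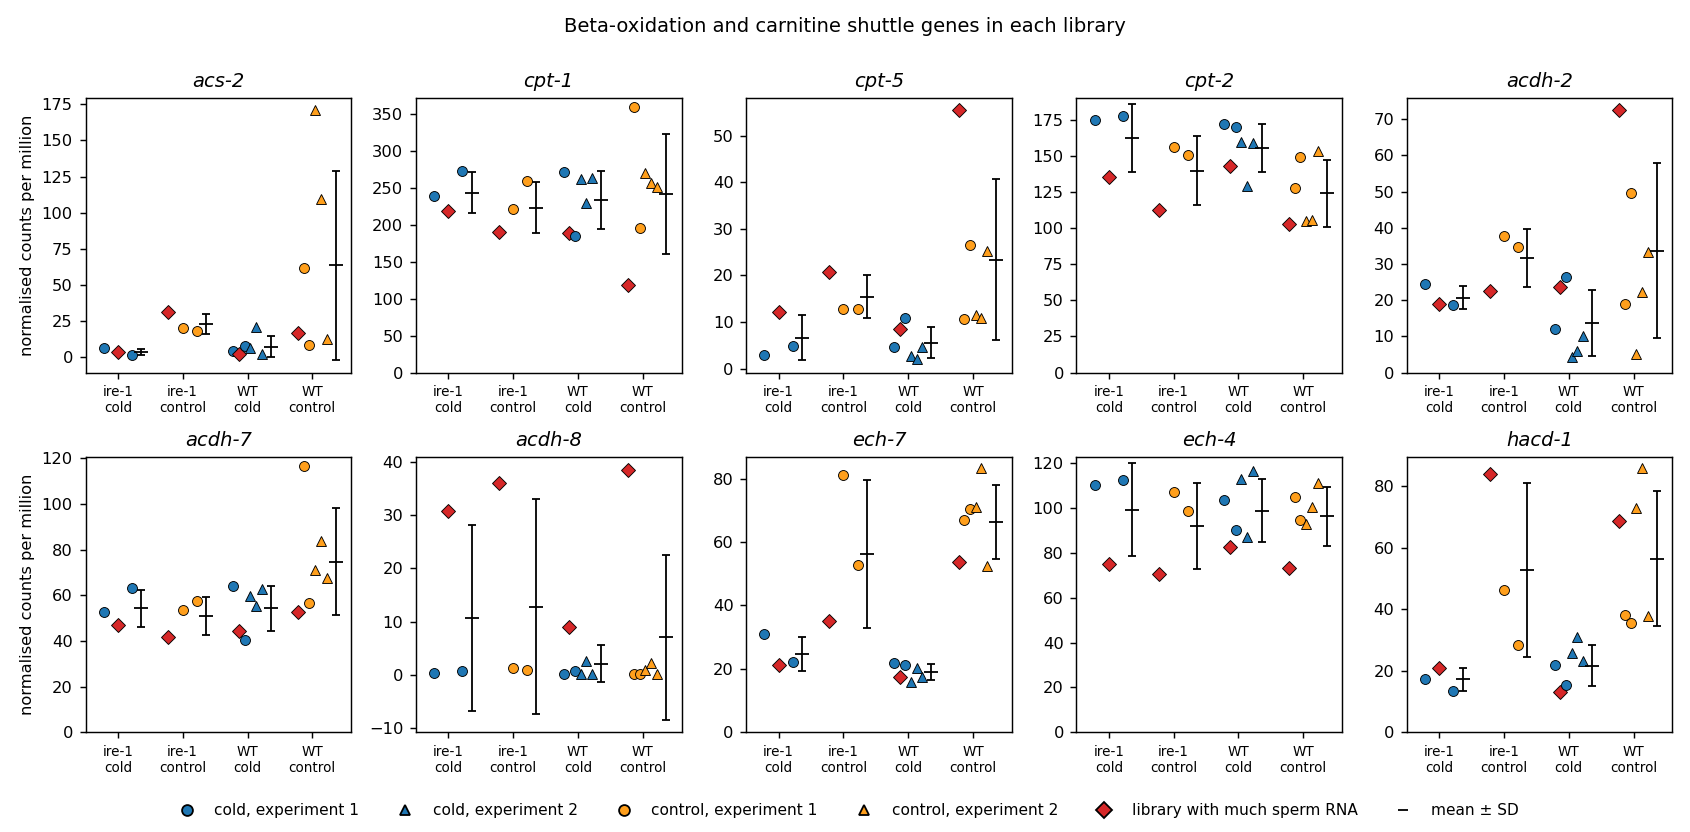
CPM of each gene (linear y axes, one panel per gene) in each of the 18 libraries, grouped as ire-1 cold, ire-1 control, WT cold and WT control; points are libraries, diamonds are the 4 libraries with much sperm RNA, and bars show the mean ± SD. The WT cold points of ech-7 (15.8 to 21.8) lie below all WT control points (52.5 to 83.4), and the 6 WT control points of acs-2 spread over 8.85 to 171.

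The gene acs-2 encodes an acyl-CoA synthetase that primes fatty acids for the mitochondrion and is widely used as a readout of NHR-49 activity. It lies on chromosome V at 15567394 to 15569897 of the WBcel235 build (WBGene00009221). In experiment 1 it stood at 4.22, 2.66 and 7.84 CPM in WT cold and at 16.9, 62.0 and 8.85 CPM in WT control. In experiment 2 it stood at 6.4, 21.2 and 2.64 CPM in WT cold and at 171, 110 and 13 CPM in WT control. Every cold library of experiment 1 was thus below every control library, while in experiment 2 cold 5 lay above control 6. The log2 fold change was -2.97 ± 0.70 (SE, edgeR, adjusted p = 0.0166), the largest fall of the 10. Of the 4 genes that fell it had the largest SE, and its highest WT control library was 19.3-fold above its lowest. Without WT control 2 it was -2.52 with an adjusted p of 0.0542, so that the call for acs-2 needs that library.

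The shuttle genes went separate ways. CPT-1 acts at the outer and CPT-2 at the inner mitochondrial membrane, and cpt-5 encodes a further predicted carnitine acyltransferase. The gene cpt-5 (WBGene00008629, chromosome V, 13873195 to 13875888) stood at 4.72, 8.59 and 10.8 CPM in WT cold and at 55.4, 10.7 and 26.5 CPM in WT control of experiment 1. In experiment 2 it stood at 2.72, 2.14 and 4.55 CPM in WT cold and at 11.6, 10.9 and 25.2 CPM in WT control. Cold and control met only in experiment 1, where WT cold 3 was level with WT control 2, and cpt-5 fell by 2.18 ± 0.41 on the log2 scale (edgeR, adjusted p = 0.00523).

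The abundant shuttle genes showed no call. The gene cpt-1 (WBGene00012907, chromosome II, 12788244 to 12796452) ran from 185 to 271 CPM with a median of 246 in WT cold, and from 118 to 360 CPM with a median of 254 in WT control. Its log2 fold change was -0.08 ± 0.20 (edgeR, adjusted p = 0.792), with a 95% interval of -0.52 to 0.35. The gene cpt-2 (WBGene00011122, chromosome IV, 11179645 to 11183008) ran from 129 to 172 CPM with a median of 159 in WT cold, and from 103 to 154 CPM with a median of 117 in WT control. Its log2 fold change of 0.29 ± 0.11 did not pass (edgeR, adjusted p = 0.104), although it did without WT control 6 (0.38, adjusted p = 0.0360) and with DESeq2 (0.38, adjusted p = 0.0359). It was the one gene of the 10 called higher in cold under any alternative fit.

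The acyl-CoA dehydrogenases catalyse the first oxidation. The gene acdh-2 (WBGene00015894, chromosome II, 5544778 to 5547492) encodes a predicted short or branched-chain enzyme and shares 87 exon bases with ins-13 on the same strand. It stood at 12, 23.5 and 26.3 CPM in WT cold and at 72.5, 19.1 and 49.7 CPM in WT control of experiment 1. In experiment 2 it stood at 4.40, 5.98 and 10.03 CPM in WT cold and at 5.16, 22.1 and 33.3 CPM in WT control. The conditions overlapped in both experiments, and the log2 fold change of -1.41 ± 0.44 missed the threshold (edgeR, adjusted p = 0.0511). It was called lower in 6 of the 25 alternative fits. These were the fit that left out WT control 2 (-1.57, adjusted p = 0.0305), the one that left out WT control 4 (-1.54, 0.0302), and those with DESeq2 (-1.32, adjusted p = 0.0134), with upper-quartile factors (adjusted p = 0.0428), with no filter on low counts (0.0497) and with all 18 libraries (0.0297).

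The gene acdh-7 (WBGene00020812, chromosome X, 17215018 to 17217105) encodes a predicted medium-chain dehydrogenase. It ran from 40.4 to 63.9 CPM with a median of 57.4 in WT cold, and from 52.7 to 117 CPM with a median of 69.3 in WT control. All 3 cold libraries of experiment 2 were below all 3 control libraries, and those of experiment 1 overlapped. Its log2 fold change was -0.50 ± 0.19 (edgeR, adjusted p = 0.0916), and -0.26 without WT control 2.

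The enoyl-CoA hydratase gene ech-7 gave the smallest p of the 10. It lies on chromosome I at 14367616 to 14369773 (WBGene00001156), with mir-8187 in one of its introns. It stood at 21.8, 17.5 and 21.3 CPM in WT cold and at 53.8, 67.1 and 70.5 CPM in WT control of experiment 1. In experiment 2 it stood at 15.8, 20.4 and 17.5 CPM in WT cold and at 71.1, 83.4 and 52.5 CPM in WT control. The 6 cold libraries were all below the 6 control libraries, with means of 19 ± 2.44 CPM in WT cold and 66.4 ± 11.7 CPM in WT control (SD, n = 6 each). The log2 fold change was -1.84 ± 0.15 (edgeR, adjusted p = 9.29e-05).

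The other hydratase-family gene, ech-4 (WBGene00001153, chromosome II, 10821031 to 10822391), is the relative of the human enoyl-CoA isomerase ECI2, which handles unsaturated fatty acids. It ran from 82.7 to 117 CPM with a median of 97.1 in WT cold, and from 73.4 to 111 CPM with a median of 97.7 in WT control. Its log2 fold change was 0.00 ± 0.10 (edgeR, adjusted p = 0.995), with a 95% interval of -0.22 to 0.22, and -0.11 with upper-quartile scaling. The 2 hydratase-family genes thus had intervals of their cold response that did not meet, as that of ech-7 ran from -2.17 to -1.51.

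The hydroxyacyl-CoA dehydrogenase gene hacd-1 (WBGene00019978, chromosome V, 1460369 to 1461613) serves the second oxidation. It stood at 21.7, 13 and 15.5 CPM in WT cold and at 68.7, 38.2 and 35.5 CPM in WT control of experiment 1. In experiment 2 it stood at 25.8, 30.9 and 23 CPM in WT cold and at 72.9, 85.8 and 37.7 CPM in WT control. Again the 6 cold libraries were all below the 6 control libraries, and the log2 fold change was -1.46 ± 0.25 (edgeR, adjusted p = 0.00324). Of all genes tested 4.9% had every WT cold library below every WT control library, as ech-7 and hacd-1 did.

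Each experiment alone gave changes of much the same size but few calls. In experiment 1 the log2 fold changes were -2.53 for acs-2, -1.91 for cpt-5, -1.62 for ech-7 and -1.47 for hacd-1 (n = 3 per condition). In experiment 2 they were -3.31 for acs-2, -2.32 for cpt-5, -1.96 for ech-7 and -1.31 for hacd-1 (n = 3 per condition). With edgeR on experiment 1 alone none of the 10 passed and ech-7 came nearest (adjusted p = 0.0739), where 0.0% of all genes were called lower. With experiment 2 alone ech-7 passed (adjusted p = 0.0462), where 0.336% were lower. Fitted with the ire-1 libraries of the same experiment, WT of experiment 1 again gave a call for ech-7 (-1.67, adjusted p = 0.0295), where 0.6% were lower. The difference between the experiments in the cold response was called for 0 of 11766 genes (0.0%) by edgeR, and 71 had an unadjusted p under 0.05. No other tool was run on that difference.

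Levels per kilobase of exon put the genes in order. In WT cold the highest were cpt-1 (83.3 ± 13.8 CPM per kb, SD, n = 6), ech-4 (78.1 ± 11.2) and cpt-2 (72.9 ± 7.80), whose mean ± SD ranges overlapped. Next, apart from these and from each other, came acdh-7 (40.5 ± 7.32) and ech-7 (24.6 ± 3.16), the last overlapping hacd-1 (21.2 ± 6.46). The lowest were acdh-2 (7.32 ± 4.88), acs-2 (3.6 ± 3.37), cpt-5 (2.45 ± 1.49) and acdh-8 (1.54 ± 2.59). Each of these overlapped the next in order, and acdh-2 lay apart from hacd-1. In WT control each gene overlapped the next in order. There cpt-1 (86.2 ± 28.8 CPM per kb) and ech-7 (85.8 ± 15.1) were highest, ahead of ech-4 (76.0 ± 10.4), cpt-2 (58.2 ± 10.8), acdh-7 (55.6 ± 17.4) and hacd-1 (55.2 ± 21.5). Then followed acs-2 (30.5 ± 31.4), acdh-2 (18 ± 12.9), cpt-5 (10.3 ± 7.60) and acdh-8 (5.2 ± 11.4). The gene ech-7 was thus among the most abundant of the 10 per length in the control and came below acdh-7 in the cold.

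The WT control libraries also differed among themselves in ways the labels do not explain. Libraries 2, 4 and 5 held the 3 highest levels of acs-2 (62.0, 171 and 110 CPM) and of acdh-7 (117, 71.0 and 83.9 CPM). The same libraries held the 3 lowest levels of cpt-5 (10.7, 11.6 and 10.9 CPM) and of acdh-2 (19.1, 5.16 and 22.1 CPM). The 6 vit (yolk) genes also summed highest in these libraries, at 109749, 117367 and 98007 CPM, against 64506 to 66988 CPM in the others. The 12 intestine marker genes did not divide this way, with a sum of 4593 CPM in library 1 and 3984 CPM in library 4. This grouping was seen in the values and was not tested. Across all 18 libraries the likeness of these genes, as Pearson's r of log2(CPM + 1), was 0.83 between acs-2 and hacd-1, 0.74 between cpt-5 and acdh-2 and 0.31 between acs-2 and cpt-5. These points share library, strain and condition, so the values describe the libraries.

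Among 14492 genes compared over the 18 libraries, the gene most like each of the 10 was as follows. The gene acs-2 was most like K08B5.2 (r = 0.95), cpt-1 like mstr-1 (0.93), cpt-5 like abhd-3.2 (0.95) and cpt-2 like nfs-1 (0.96), which encodes the mitochondrial cysteine desulfurase. Of the dehydrogenases, acdh-2 was most like dhs-25 (r = 0.94) and acdh-7 like its relative acdh-10 (0.96). The hydratase gene ech-7 was most like C13A10.1 (r = 0.94), ech-4 like ubxn-2 (0.95) and hacd-1 like F42G2.2 (0.93), with nhr-88 next (0.93). The counting of reads shared by near-identical relatives, which acdh-7 and acdh-10 may have, is not described in the labels.

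The dehydrogenase gene acdh-8 (WBGene00019406, chromosome II, 5794495 to 5796185) stood apart from the other 9. It had 30.8 CPM in ire-1 cold 2, 36.1 in ire-1 control 1, 8.97 in WT cold 2 and 38.6 in WT control 1, which are the 4 libraries with much sperm RNA. In the other 14 it had 0.0615 to 2.5 CPM, from 1 to 35 counts. The gene most like it was msp-57, which encodes a major sperm protein (r = 0.997 over 18 libraries). Its cold response in WT was -1.31 ± 1.41 on the log2 scale (edgeR, adjusted p = 0.533), with a 95% interval of -4.37 to 1.75, and without those 4 libraries it had too few counts to be tested in WT.

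**Figure D2:**
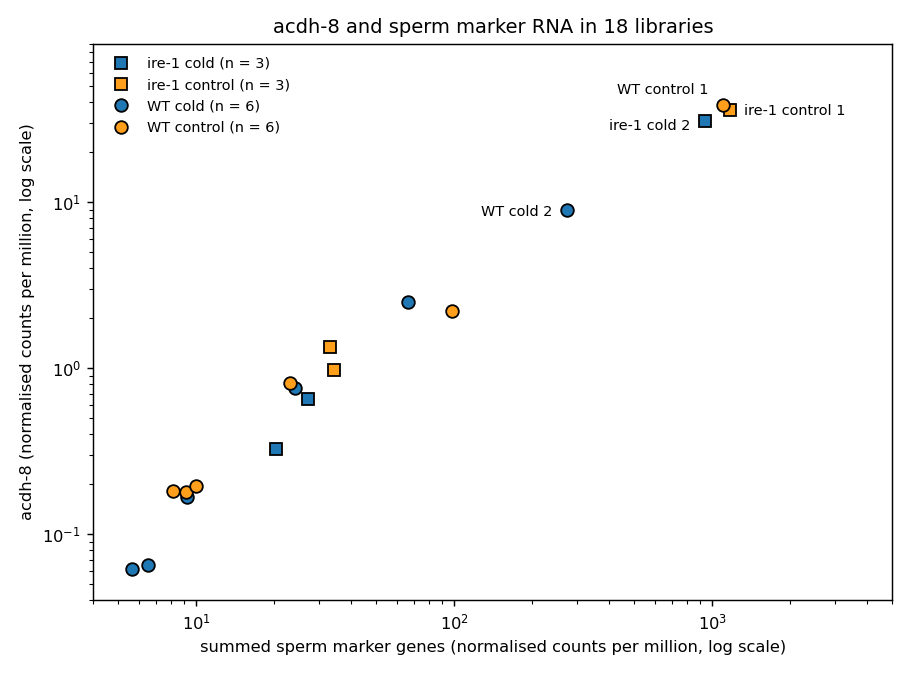
The level of acdh-8 against the summed level of 36 sperm marker genes, both in CPM on log axes, with 1 point for each of the 18 libraries; colour gives the condition and shape the strain. The 4 named libraries reach 8.97 to 38.6 CPM of acdh-8, and the other 14 stay at or below 2.5 CPM.

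Beyond the 10 genes, 52 further genes of the same enzyme families and of the electron transfer flavoprotein were examined. They were listed by family, and not all act in mitochondrial beta-oxidation. Of the 52, 46 passed the filter for cold in WT. Of these, 11 fell and none rose by edgeR, where 10.4% of all genes fell and 2.7% rose. The median log2 fold change of the 46 was -0.48. With RLE scaling 7 fell and 1 rose, where 1127 of all 11766 genes fell and 449 rose. With DESeq2 12 fell and 1 rose, where 13.7% of all genes fell and 8.49% rose. Among the acyl-CoA synthetases 4 of 16 fell, led by acs-5 (-2.73 ± 0.30, edgeR, adjusted p = 0.000414), acs-14 (-2.16 ± 0.41, adjusted p = 0.00585) and acs-7 (-1.68 ± 0.35, adjusted p = 0.00862). The gene acs-7 is known for the peroxisomal shortening of ascaroside side chains. The gene acs-5 averaged 8.78 ± 4.85 CPM in WT cold and 53.8 ± 13.3 CPM in WT control (SD, n = 6 each), so the fall of acs-2 had a counterpart of like size and smaller spread within its enzyme class.

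Of the other hydratase genes 3 of 8 fell, ech-8 (-1.70, adjusted p = 0.0114), ech-3 (-1.18, adjusted p = 0.0194) and ech-6 (-0.50, adjusted p = 0.0487) by edgeR. Of the other dehydrogenases 2 of 9 fell, acdh-9 (-1.05, adjusted p = 0.0249) and acdh-11 (-0.35, adjusted p = 0.0403). The thiolase gene T02G5.7 (-0.57, adjusted p = 0.0299) and B0272.3 (-0.46, adjusted p = 0.0456), a relative of human HADH, were the 2 of 6 that fell among the hydroxyacyl-CoA dehydrogenases and thiolases. None of the 4 other shuttle genes and none of the 3 genes of the electron transfer flavoprotein and its dehydrogenase passed by edgeR, limma-voom or DESeq2. Without the 4 libraries with much sperm RNA 8 of 45 passed, as acdh-11, ech-6, T02G5.7 and B0272.3 no longer did and ech-1.1 did (-1.05, adjusted p = 0.0435). In that fit 8.24% of all genes were lower.

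Of the regulators 2 of 8 fell, namely nhr-80, a nuclear receptor of fatty acid desaturation (-1.63 ± 0.38, edgeR, adjusted p = 0.0144), and hlh-30, the TFEB relative (-1.01 ± 0.26, adjusted p = 0.0233), whose adjusted p was 0.0582 without the 4 sperm-rich libraries. The RNA of nhr-49 did not pass, at 101 ± 11.7 CPM in WT cold and 84.8 ± 15.8 CPM in WT control (0.23 ± 0.11, adjusted p = 0.164). The same was true of its partner mdt-15, at 163 ± 40.7 CPM in WT cold and 120 ± 24.6 CPM in WT control (0.41 ± 0.14, adjusted p = 0.0767). With DESeq2 1 of the 8 regulators was called higher in WT cold and 2 lower, where 8.49% of all genes were higher and 13.7% lower.

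**Figure D3:**
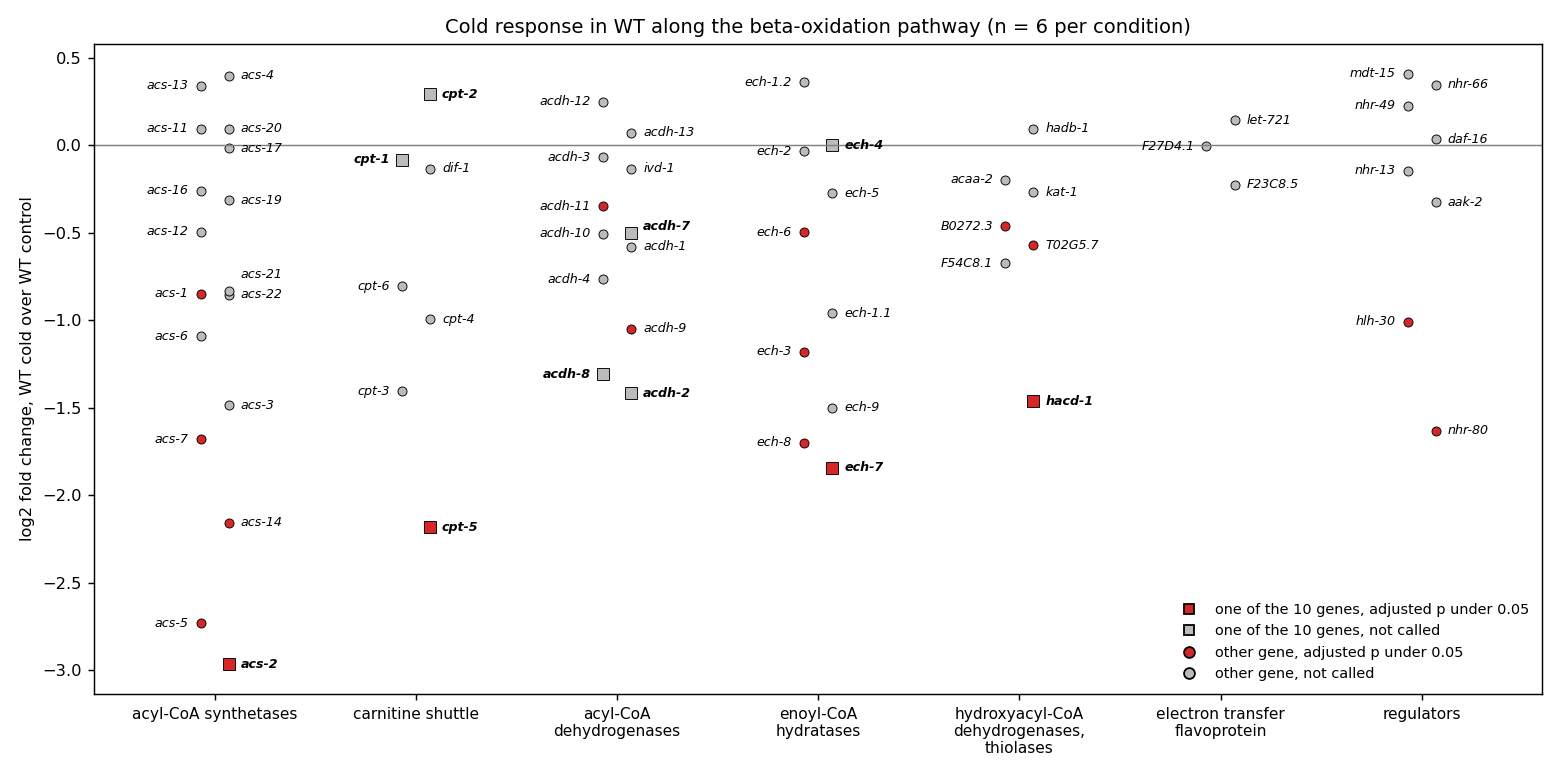
Log2 fold change of WT cold over WT control (n = 6 per condition, edgeR) for each tested gene of the 10 and of their enzyme families, arranged by enzyme step with the regulators at the right; squares are the 10 genes and circles the others, and red marks an adjusted p under 0.05. The red squares are acs-2 (-2.97), cpt-5 (-2.18), ech-7 (-1.84) and hacd-1 (-1.46), and no red point lies above 0.

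Intestine markers moved in the same direction. Of 12 marker genes of the intestine 7 fell in WT cold by edgeR (median log2 fold change -1.38), where 10.4% of all genes fell. Among them were pept-1 (-2.13 ± 0.24, edgeR, adjusted p = 0.000414), ges-1 (-1.79 ± 0.42, adjusted p = 0.0168) and vha-6 (-1.64 ± 0.30, adjusted p = 0.00469). With DESeq2 9 fell, where 13.7% of all genes did. With limma-voom 9 fell, where 1300 of 11766 genes did, and with RLE scaling 6 fell, where 1127 did. The summed level of the 12 ran from 630 to 2603 CPM with a median of 1355 in WT cold, and from 1726 to 5288 CPM with a median of 4289 in WT control, and none was at 0. Without the 4 libraries with much sperm RNA 4 of the 12 passed, pept-1, ges-1, vha-6 and act-5, where 8.24% of all genes were lower. All 6 yolk genes, which the intestine also makes, fell (median -1.40), and 5 of the 6 did without those 4 libraries, where vit-2 missed (-1.06, adjusted p = 0.0650). Of 8 oocyte and germline markers 1 rose, syp-1 (0.58, adjusted p = 0.0199), none of 6 muscle markers passed by edgeR, and of 6 neuronal markers unc-31 rose (1.37, adjusted p = 0.0137). The part of intestinal RNA in the fall of acs-2, cpt-5, ech-7 and hacd-1 was not tested.

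In ire-1 worms the second comparison asked for the cold response of the mutant (n = 3 per condition, experiment 1). None of the 10 genes was called by edgeR, where 8 of 14344 genes (0.0558%) were, all of them higher. Of the 10 genes 3 had an unadjusted p under 0.05, namely ech-7, hacd-1 and acs-2, as had 1009 of all 14344 genes. The gene acs-2 stood at 6.22, 3.56 and 1.97 CPM in ire-1 cold and at 31.2, 20.004 and 18.4 CPM in ire-1 control. Its log2 fold change was -2.58 ± 0.72 (edgeR, adjusted p = 0.238). The 3 cold libraries lay well below the 3 control libraries, which were closer together than those of WT.

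The hydratase gene ech-7 stood at 31, 21.2 and 22.1 CPM in ire-1 cold and at 35.0, 81.3 and 52.8 CPM in ire-1 control (-1.18 ± 0.26, adjusted p = 0.141). The gene hacd-1 stood at 17.2, 21 and 13.3 CPM in ire-1 cold and at 83.9, 46.1 and 28.2 CPM in ire-1 control (-1.61 ± 0.43, adjusted p = 0.217). The gene cpt-5 stood at 2.95, 12.1 and 4.94 CPM in ire-1 cold and at 20.7, 12.7 and 12.8 CPM in ire-1 control (-1.17 ± 0.69, adjusted p = 0.970). In all 4 genes every ire-1 cold library was below every ire-1 control library, as in 9.32% of all genes tested. For cpt-5 the gap was slight, since ire-1 cold 2 nearly reached the control.

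The calls for these genes in ire-1 depended on the fit. With DESeq2 ech-7 (adjusted p = 0.0120), hacd-1 (0.0105) and acs-2 (0.0129) were called lower, where 1.23% of all genes were. Without the 4 libraries with much sperm RNA ech-7 was called by edgeR (-1.39 ± 0.25, adjusted p = 0.0339), where 0.859% of all genes were lower, and hacd-1 had an adjusted p of 0.0587. That fit held only n = 2 per group, without ire-1 cold 2 and ire-1 control 1. With limma-voom none of the 10 was called.

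The remaining genes showed small or uncertain values in ire-1. The gene cpt-1 stood at 240, 219 and 272.5 CPM in ire-1 cold and at 190, 221 and 259 CPM in ire-1 control, and cpt-2 at 175, 136 and 178 CPM in ire-1 cold and at 113, 156 and 151 CPM in ire-1 control. The gene ech-4 stood at 110, 75.3 and 113 CPM in ire-1 cold and at 70.7, 107 and 98.6 CPM in ire-1 control. The conditions overlapped for all 3, with log2 fold changes of 0.13, 0.22 and 0.11 in that order. The gene acdh-2 stood at 24.4, 19 and 18.6 CPM in ire-1 cold and at 22.7, 37.6 and 34.6 CPM in ire-1 control (-0.61 ± 0.47), and acdh-7 at 52.9, 47.1 and 63.1 CPM in ire-1 cold and at 41.6, 53.6 and 57.3 CPM in ire-1 control (0.10 ± 0.28). None of the 52 further genes of the enzyme families and none of the 8 regulators was called in ire-1 by edgeR. Intestine markers summed to 1296 to 2120 CPM in ire-1 cold and 1496 to 2367 CPM in ire-1 control, and none of the 12 was called.

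**Figure D4:**
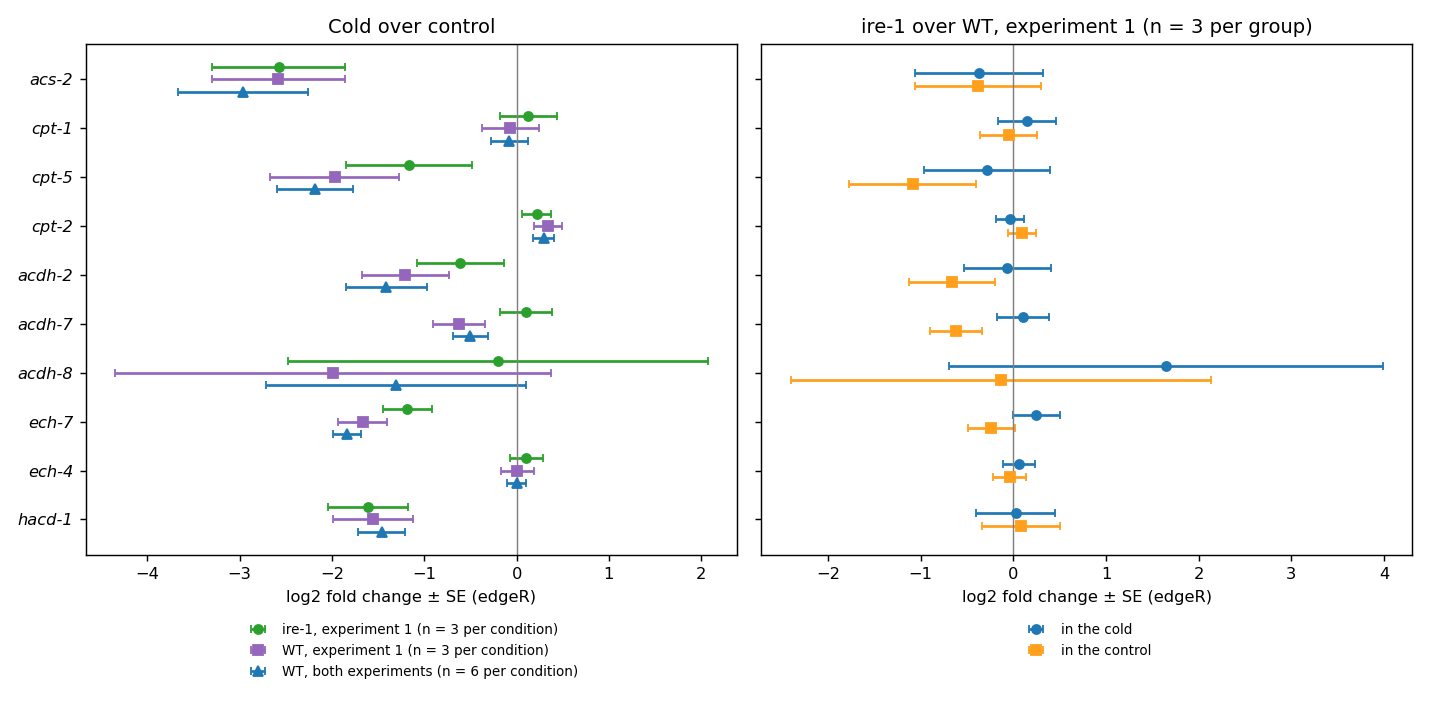
Log2 fold change ± SE (edgeR) of each of the 10 genes, left for cold over control in ire-1 (n = 3 per condition), in WT of experiment 1 (n = 3) and in WT of both experiments (n = 6), and right for ire-1 over WT in the cold and in the control (n = 3 per group). Values for acs-2 in cold lie at -2.58, -2.58 and -2.97, and the values for ire-1 over WT in the control run from -1.09 (cpt-5) to 0.09 (cpt-2).

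The difference between the strains in their cold response was tested directly, as the ire-1 response minus the WT response within experiment 1. It was called for none of the 10 genes and for 0 of 14344 genes (0.0%) by edgeR. No gene of the 10 had an unadjusted p under 0.05, although 197 of all genes did, and DESeq2 called 1 gene in all and none of the 10. The 95% intervals are wide. For acs-2 the difference was 0.01 with an interval of -2.25 to 2.27, for hacd-1 -0.06 (-1.38 to 1.26), for cpt-5 0.80 (-1.31 to 2.92) and for ech-7 0.49 (-0.32 to 1.29).

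For the genes with steadier counts the intervals were narrower. The difference was -0.13 (-0.61 to 0.35) for cpt-2, 0.10 (-0.45 to 0.65) for ech-4 and 0.20 (-0.77 to 1.16) for cpt-1. For acdh-7 it was 0.72 (-0.16 to 1.60), for acdh-2 0.60 (-0.86 to 2.05) and for acdh-8 1.78 (-5.39 to 8.95). For all 10 genes except cpt-2 and ech-4 the interval of this unpaired fit reaches past a log2 difference of 1, a 2-fold difference. Without the 4 libraries with much sperm RNA (n = 2 per group) the difference was -0.52 for cpt-5. For acdh-8 it was then -2.69 ± 1.00 (edgeR, unadjusted p = 0.0247, adjusted p = 0.999). That for acs-2 was -1.32 without WT control 2. With the strains paired by number within each condition, edgeR called 0 of 14344 genes, and 836 had an unadjusted p under 0.05. The difference was then -0.02 ± 0.33 for hacd-1, 0.08 ± 0.35 for cpt-1 and -0.08 ± 0.78 for acdh-8. It was 0.55 ± 0.30 for ech-7, 0.35 ± 0.53 for cpt-5 and -0.41 ± 0.83 for acs-2.

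The strains were also compared within each condition of experiment 1 (n = 3 per group). In the cold none of the 10 genes was called by edgeR, where 2 of 14344 genes (0.0139%) were, and none had an unadjusted p under 0.05. With same-numbered libraries of the strains paired within the condition 22 genes (0.153%) were called, again none of the 10 and none with an unadjusted p under 0.05. The log2 difference between ire-1 cold and WT cold was -0.37 ± 0.69 for acs-2, -0.28 ± 0.68 for cpt-5, 0.25 ± 0.26 for ech-7 and 0.02 ± 0.42 for hacd-1. For cpt-1, cpt-2, ech-4, acdh-2 and acdh-7 it lay between -0.07 and 0.15. All 10 genes overlapped between the strains.

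In the control likewise none of the 10 was called by edgeR, where 9 of 14344 genes (0.0627%) were, and none had an unadjusted p under 0.05. With the strains paired by number 390 genes (2.72%) were called and still none of the 10. In that fit 3560 of 14344 genes had an unadjusted p under 0.05. Of the 10 genes acdh-7 (-0.54, unadjusted p = 0.0445, adjusted p = 0.191) and cpt-5 (-0.81, unadjusted p = 0.0487, adjusted p = 0.200) were among them. The nearest without the pairing was acdh-7, with 41.6, 53.6 and 57.3 CPM in ire-1 control and 52.7, 117 and 56.6 CPM in WT control (-0.62 ± 0.28, unadjusted p = 0.0505, adjusted p = 0.411). That value rested on WT control 2, without which it was 0.00. Intestine markers summed to 1496 to 2367 CPM in ire-1 control and 2385 to 5288 CPM in WT control of experiment 1, and their part in the values here was not tested. The difference was -1.09 ± 0.68 for cpt-5 and -0.66 ± 0.47 for acdh-2, and without the 4 libraries with much sperm RNA (n = 2 per group) -0.50 and 0.12. For acdh-8 it was -0.13 ± 2.27, and without those 4 libraries 2.71 ± 0.71 (edgeR, unadjusted p = 0.0042, adjusted p = 0.186). The latter rested on low counts, from 4 in WT control 2 to 35 in ire-1 control 2. The difference was -0.38 ± 0.68 for acs-2, -0.24 ± 0.26 for ech-7 and 0.08 ± 0.42 for hacd-1. The sign turned for acs-2 without WT control 2 (1.00) and for ech-7 without ire-1 control 1 (0.16), and neither was called. DESeq2 and limma-voom also called none of the 10 in either condition.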

How the data were processed

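The deposited tables hold raw read counts per gene, made by the authors with bcl2fastq, STAR 2.5.0a and HTSeq on the WBcel235 build, per the submitters' processing notes. Libraries were made from Trizol RNA after poly(A) selection, per the labels' protocols. Strand setting, annotation release and the treatment of reads shared by paralogs are not given in the sources used. Ensembl 115 supplied symbols and positions, with no symbol for 3055 identifiers (1.42% of the counts).

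The counts were tested by quasi-likelihood with edgeR 4.0.16 in R 4.3.3, with TMM factors and filterByExpr (minimum count 10, minimum total 15). Benjamini-Hochberg adjustment ran across every tested gene of a comparison, at 0.05. Cold in WT used 12 libraries and the experiment as a covariate. The comparisons with ire-1 used the 12 libraries of experiment 1. An SE is the absolute log2 fold change over the square root of F. Levels per kilobase use merged exon length. A level of 1 CPM is about 10 or more reads in each library, so counting error matters mainly for acdh-8. No libraries had near-identical counts (smallest chi-square per degree of freedom 12.2).

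The members and gene lists were chosen with earlier results of these data known. All 10 members, nhr-49 and mdt-15 were named, with up to 4 genes per list by smallest p in WT cold, and the gene most alike by Pearson's r. Same-numbered libraries of the 2 strains deviated together within a condition (6 of 6 pairs over 0.1, from 0.357 to 0.872). Fits with the strains paired by number there are therefore given beside the main fits, which left them unpaired. Of the other 15 same-number pairs 6 passed 0.1, so no pairing was assumed. The alternatives were other scaling (RLE, upper quartile), no filter, DESeq2 1.42.0, limma-voom (limma 3.58.1), replicate blocks, single experiments, all 18 libraries, fits of 2 groups, no experiment term, and left-out libraries. WT of experiment 1 fitted with the ire-1 libraries was added after seeing the data.

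On simulated data of the same sample sizes, edgeR called 51.1% of genes changed 2-fold and 89.1% of those changed 4-fold in the design of WT cold. The shares in the design of ire-1 cold were 5.21% and 34.0%. They were 11.2% and 32.3% between strains in the control, 2.20% and 30.8% between strains in the cold, and 0% and 7.29% for the difference between cold responses. The simulated libraries were drawn independently, without the shared deviations and the sperm RNA of the real ones. Few genes were changed in them, in the design of WT cold 94 by 2-fold and 101 by 4-fold. The shares therefore need not hold for the real libraries.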

Additional observations from a re-analysis of the deposited data

Results flagged for a closer look

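In 20 groups of 6 WT libraries (10 genes in 2 conditions), Dixon's outlier test on CPM set a single library apart in 4. For normally distributed values it would do so in about 1 in 20. CPM pooled over 2 experiments need not be so distributed, so that rate need not hold here. In WT cold 5 acs-2 stood at 21.2 CPM, against 2.64 to 7.84 CPM in the other 5 cold libraries. In WT control 1 cpt-5 stood at 55.4 CPM, against 10.7 to 26.5 CPM in the other 5 control libraries. The gene acdh-8 stood at 8.97 CPM in WT cold 2, against 0.0615 to 2.5 CPM in the others, and at 38.6 CPM in WT control 1, against 0.180 to 2.21 CPM. WT cold 2 and WT control 1 are among the 4 libraries with much sperm RNA. What set these libraries apart was not tested.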

How the results depend on the processing

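For cold in WT 4 of the 10 genes passed, and 4 to 5 with any 1 library left out. The count was 0 with experiment 1 alone, 1 with experiment 2 alone, 1 with experiment 1 fitted with the ire-1 libraries, 5 with upper-quartile factors and 6 with DESeq2. With a block for the replicate number it was 4, and the block changed no call among the 10 in any comparison. Pairing the strains within a condition called 390 genes in the control and 22 in the cold, none of the 10. In ire-1 the count was 0, but 3 with DESeq2 and 1 without the 4 libraries with much sperm RNA. The counts of all genes moved far more: 1545 for cold in WT became 848 (without WT control 5) to 2632 (without WT control 6) with 1 library left out and 3 to 3395 otherwise. For cold in ire-1 8 became 0 to 50 and 0 to 342, for the strains in the control 9 became 2 to 48 and 1 to 390, and in the cold 2 became 1 to 3 and 2 to 47. Upper-quartile factors moved the median of all genes for cold in WT from -0.07 to -0.18. Of 1104 alternative values of the 10 genes, 113 changed sign, 0 of them called either way, and 21 of these moved by over 1 SE. The sign changed with upper-quartile factors for ech-4 in WT cold (-0.11). Without the 4 libraries with much sperm RNA it changed for cpt-5 (-0.52) and acdh-8 (-2.69) in the difference between responses, and for ech-7 (0.021), acdh-2 (0.12) and acdh-8 (2.71) between the strains in the control. With 1 library left out, cold in WT ran from -0.18 to 0.16 for cpt-1, from -2.48 to 1.45 for acdh-8 and from -0.62 to 0.017 for act-4, and cold in ire-1 from -4.77 to 3.30 for acdh-8. The difference between responses then ran from -0.41 to 0.44 for cpt-1, from -1.32 to 0.54 for acs-2 and from -4.39 to 5.08 for acdh-8. The strains in the control ran from -0.58 to 0.16 for ech-7, from -0.25 to 0.60 for cpt-1, from -0.82 to 1.00 for acs-2, from -0.81 to 0.0030 for acdh-7, from -3.28 to 6.18 for acdh-8 and from -0.14 to 0.26 for ech-4, and in the cold from -2.93 to 4.56 for acdh-8. The causes were not tested. No value was given for acdh-8 with DESeq2, and for cold in WT none without the 4 libraries with much sperm RNA. At 1 CPM and below, as for acdh-8 in 10 or more libraries, counting error limits the values.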
